A study of Mus musculus with 6 samples.

Results

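Dusp4, Dusp5, Dusp6, Spry2, Spred1, Fosl1, Etv5, Ccnd1, Myc and Phlda1 are genes commonly used as a transcriptional readout of the RAS to ERK branch of MAPK signalling. They were described here in 6 RNA libraries of mouse bone marrow cells grown with M-CSF. The 10 genes were picked by name from the 17382 genes of the deposited table, and each matched 1 row. They were proposed with results of these libraries already known, so their levels and the order of the libraries are given as a description. The libraries labelled knockout came from mice that carry floxed PD-L1 alleles together with lysozyme-Cre, a Cre driven from the lysozyme gene that is active in myeloid cells. The wild-type libraries came from littermates with the floxed alleles and no Cre. Every mouse was C57BL/6 and 2 months old, so both groups carry the floxed alleles, and any effect of Cre itself cannot be told apart from an effect of the deletion. Marrow cells were cultured for 3 days in medium with 10% serum and 40 ng/mL M-CSF, the growth factor that binds the receptor encoded by Csf1r. There were 3 libraries per group, described as biological triplicates, and reads recovered per library ranged between 52.4 and 77.3 (in units of 1000000).

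When M-CSF binds its receptor tyrosine kinase, adaptor proteins recruit exchange factors that load RAS with GTP, and RAS then starts the RAF, MEK and ERK kinase cascade. ERK enters the nucleus and raises transcription of factors such as MYC, FRA-1 and the PEA3 class of ETS proteins and of cyclin D1, which takes macrophage precursors into the cell cycle. It also raises its own inhibitors: the dual-specificity phosphatases that dephosphorylate ERK, and the Sprouty and Spred proteins that act at the level of RAS and RAF. RNA levels of these genes are a readout of the pathway at the transcript level and do not measure ERK phosphorylation, which was not measured here.

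The upstream sequence of 5 of the 10 genes was given by RefSeq (build GRCm38.p6): Dusp5, Dusp6, Spry2, Spred1 and Etv5, the last with a pair of starts. In each, the 250 bases before the start were searched on both strands for the ETS core CCGGAA, the AP-1 site TGANTCA, the CRE site TGACGTCA, the E-box CACGTG and the CArG box, the site of serum response factor. The 3 sequences printed here are of inhibitors of the pathway, and capitals mark each match.
Dusp5, chr19:53528895-53529144 (plus strand): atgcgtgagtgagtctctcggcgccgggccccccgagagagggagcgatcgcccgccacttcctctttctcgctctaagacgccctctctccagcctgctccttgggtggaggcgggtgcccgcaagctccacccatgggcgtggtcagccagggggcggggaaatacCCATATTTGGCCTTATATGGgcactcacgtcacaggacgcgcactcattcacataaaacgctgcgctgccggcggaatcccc
Dusp6, chr10:99262981-99263230 (plus strand): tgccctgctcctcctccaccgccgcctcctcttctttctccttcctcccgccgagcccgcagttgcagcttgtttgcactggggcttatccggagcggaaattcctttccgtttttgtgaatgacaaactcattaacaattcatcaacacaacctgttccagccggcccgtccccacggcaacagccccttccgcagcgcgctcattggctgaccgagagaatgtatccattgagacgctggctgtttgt
Spry2, chr14:105896820-105897069 (minus strand): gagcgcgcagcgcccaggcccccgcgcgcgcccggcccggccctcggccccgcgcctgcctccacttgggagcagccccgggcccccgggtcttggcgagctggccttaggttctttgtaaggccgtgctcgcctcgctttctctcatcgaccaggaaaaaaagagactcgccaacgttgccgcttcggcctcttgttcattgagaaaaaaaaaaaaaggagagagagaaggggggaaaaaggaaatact
The Dusp5 sequence held 2 CArG boxes that lie next to each other without overlap. Their first bases lie 82 and 72 bases before the RefSeq start, which directly follows position 53529144. In the deposited table Dusp5 begins further downstream, at position 53529318. Of 32851 RefSeq promoter windows of this length, 482 (1.47%) held at least 1 CArG box and 6 held 2 or more. The ETS core was in 12.03% of these windows, the AP-1 site in 6.75%, the E-box in 6.02% and the CRE site in 1.55%. None of these letters was found in the windows of Dusp6, Spry2, Spred1 or Etv5, which says nothing about sites elsewhere.

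Expression is given as TPM, reads per unit of gene length brought to the same sum in every library, which allows levels to be compared between genes. Averaged over the 6 libraries, Ccnd1 stood first at 244 TPM, followed by Dusp6 at 149, Spred1 at 83.6, Etv5 at 48.1, Myc at 44.2, Dusp4 at 26.9 and Spry2 at 15.1 TPM. Phlda1, Dusp5 and Fosl1 were low, at 1.93, 1.80 and 0.896 TPM, and had fewer than 200 reads in every library. Some neighbours in this order changed places between libraries. Ccnd1 was above Dusp6 in 4 of 6 libraries, Etv5 above Myc in 4 of 6, and Phlda1 above Dusp5 in 3 of 6, whereas the other neighbours kept their order in 6 of 6.

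The ERK phosphatases differed widely between libraries of the same genotype. Dusp6 encodes the cytoplasmic phosphatase with a strong preference for ERK and spans positions 99263231 to 99267489 of chromosome 10, plus strand (build mm10). It had 135, 125 and 192 TPM in knockout libraries 1, 2 and 3 and 173, 153 and 118 TPM in wild-type libraries 1, 2 and 3. Knockout 3 was the highest and wild type 3 the lowest, and the groups overlapped. The group means were 151 ± 36.4 for knockout against 148 ± 27.7 TPM for wild type (mean ± SD, n = 3 per genotype).

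Dusp4 encodes a nuclear phosphatase of ERK and other MAP kinases and spans positions 34807610 to 34819894 of chromosome 8, plus strand. It reached 16.9, 16.7 and 46.9 TPM in the knockout libraries, against 33.5, 33.4 and 13.8 TPM in the wild-type ones. The order of the libraries was the same as for Dusp6, with knockout 3, wild type 1 and wild type 2 at the top. Despite this range the means nearly coincided, at 26.8 ± 17.4 for knockout against 26.9 ± 11.3 TPM for wild type (mean ± SD, n = 3 per genotype).

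Dusp5 (chromosome 19, positions 53529318 to 53541322, plus strand) encodes a nuclear phosphatase specific for ERK, and its upstream CArG pair is shown above. It had 1.46, 1.07 and 2.25 TPM in the knockout libraries, against 2.53, 1.73 and 1.75 TPM in the wild-type ones, from 34 to 63 reads per library. Wild type 3, the lowest library for both other phosphatases, stood above wild type 2 for Dusp5. The means were 1.59 ± 0.598 for knockout against 2.00 ± 0.459 TPM for wild type (mean ± SD, n = 3 per genotype), with overlapping groups. An antisense RNA is annotated across the 5′ end of Dusp5. The libraries were strand-specific, but whether strand was used in counting is not stated, so reads of the pair may not be fully separated.

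The inhibitors that act at the membrane came next. Spry2 (chromosome 14, positions 105891947 to 105896819, minus strand) encodes a Sprouty protein that dampens receptor tyrosine kinase signalling. It had 11.6, 10.98 and 21.0 TPM in the knockout libraries, against 19.3, 18.3 and 9.77 TPM in the wild-type ones. Knockout 3 again lay with wild type 1 and 2, and wild type 3 with knockout 1 and 2. The means were 14.5 ± 5.60 for knockout against 15.8 ± 5.22 TPM for wild type (mean ± SD, n = 3 per genotype).

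Spred1 encodes a protein that brings the RAS inhibitor neurofibromin to the membrane and spans positions 117121071 to 117182277 of chromosome 2, plus strand. It reached 71.9, 77.4 and 91.8 TPM in the knockout libraries, against 97.1, 95.3 and 68.1 TPM in the wild-type ones. It was the steadiest of the 10 genes, with a highest library 1.43 times the lowest (95% counting interval 1.39 to 1.46, which covers counting error only). Wild type 1 and 2 were slightly above knockout 3, and the groups overlapped.

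Among the transcription factors, Fosl1 had the widest range of all. It encodes FRA-1, an AP-1 subunit that ERK stabilises, and spans positions 5447698 to 5455938 of chromosome 19, plus strand. It had 0.396, 0.214 and 1.93 TPM in knockout, or 20, 10 and 80 reads, and 1.63, 1.04 and 0.164 TPM in wild type, or 59, 55 and 8 reads. The highest library, knockout 3, was 11.8 times the lowest, wild type 3, with a counting interval of 5.71 to 28.3. The 3 low libraries were thus close to the limit of measurement, while the other 3 had at least 55 reads. Ccdc85b lies on the opposite strand over the 3′ end of Fosl1 and had 1.43 to 2.82 TPM in the knockout libraries and 1.45 to 1.68 TPM in the wild-type ones. It was highest in knockout 1, where Fosl1 was low.

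Etv5, a PEA3 class ETS factor, spans positions 22381313 to 22439570 of chromosome 16, minus strand. It had 31.8, 37.2 and 58.5 TPM in the knockout libraries, against 62.5, 71.2 and 27.4 TPM in the wild-type ones. Wild type 2 was the highest library and wild type 3 the lowest, 2.60-fold apart, so the group of wild-type libraries held both ends of the range.

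Myc, the growth and ribosome biogenesis regulator, spans positions 61985341 to 61990361 of chromosome 15, plus strand. It reached 28.0, 22.9 and 66.4 TPM in the knockout libraries, against 68.4, 60.4 and 19.2 TPM in the wild-type ones. The 3 upper libraries lay within 60.4 to 68.4 TPM and the 3 lower ones within 19.2 to 28.0 TPM, with no library between.

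Ccnd1, which encodes cyclin D1, the partner of CDK4 and CDK6 in early cell cycle entry, was the most abundant member. The gene spans chromosome 7, positions 144929931 to 144939925, minus strand. It had 118, 131 and 427 TPM in the knockout libraries, against 333, 373 and 83.8 TPM in the wild-type ones. No library lay between 131 and 333 TPM, and the highest was 5.10 times the lowest (counting interval 4.98 to 5.22). Means were 225 ± 175 for knockout against 263 ± 157 TPM for wild type (mean ± SD, n = 3 per genotype), so the SD within a genotype far exceeded the difference between them. Oraov1 on the opposite strand, annotated to reach the 3′ end of Ccnd1 in one catalogue, had only 15.6 to 17.8 TPM in all 6 libraries.

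Phlda1 encodes a pleckstrin homology-like protein whose RNA follows ERK activity in many cell lines, and spans positions 111506286 to 111508649 of chromosome 10, plus strand. It had 1.73, 0.710 and 3.63 TPM in knockout, or 100, 38 and 172 reads, and 3.05, 1.53 and 0.930 TPM in wild type, or 126, 93 and 52 reads. Knockout 1 stood above wild type 2 here, which makes Phlda1 with Dusp5 the pair that departed from the shared order. An antisense long noncoding RNA is annotated within it.

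**Figure D1:**
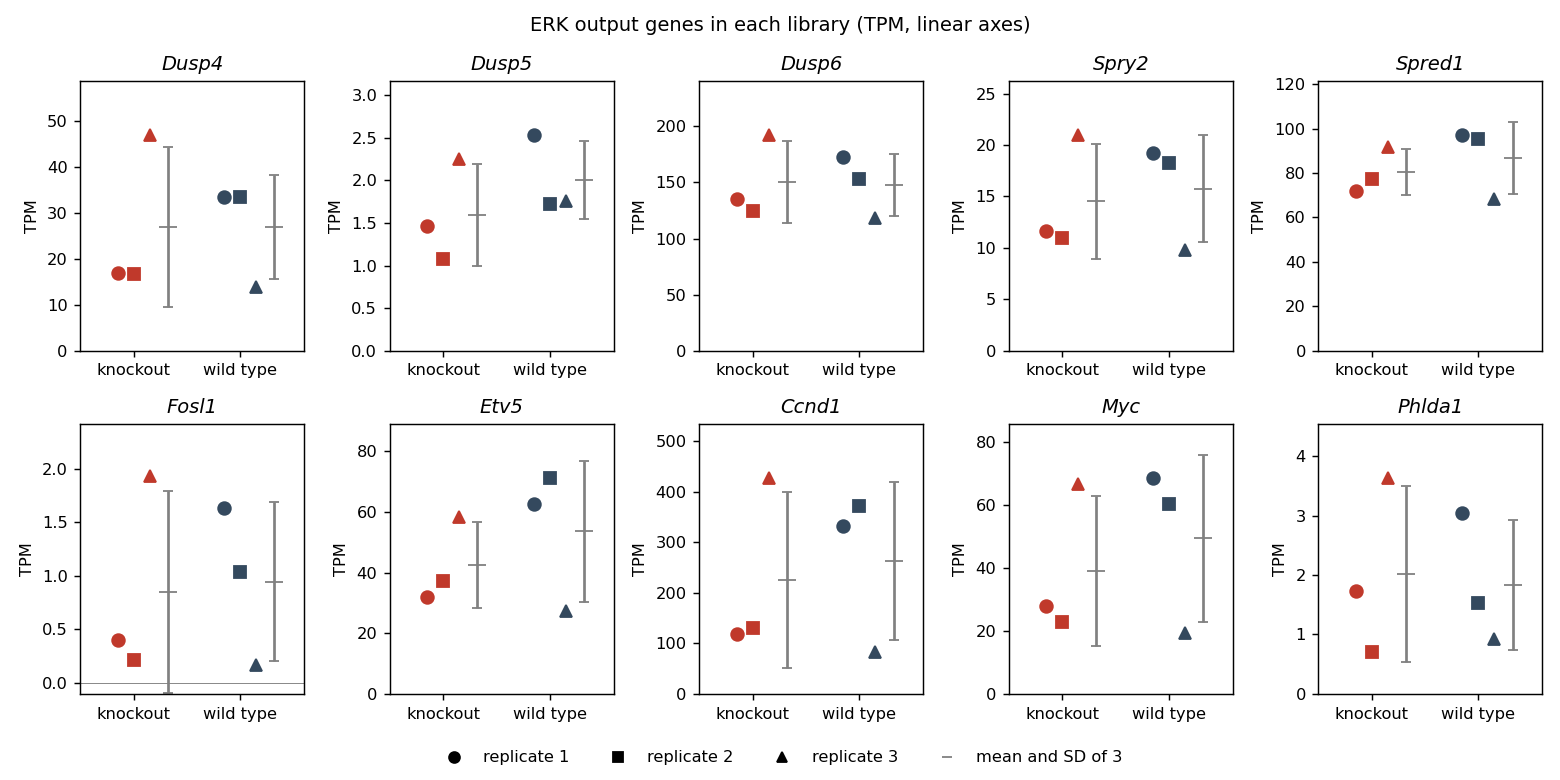
TPM of each of the 10 genes in each library (circle, square and triangle for replicates 1, 2 and 3), knockout left of wild type, with the mean and SD of 3 in grey. In most panels knockout 3 lies with wild type 1 and 2 and wild type 3 lies with knockout 1 and 2, as for Ccnd1 with 427, 333 and 373 TPM against 118, 131 and 83.8 TPM.

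The order of the libraries was shared by most of the 10 genes and did not follow the genotype labels. Knockout 3 was the highest library for 6 genes, wild type 1 for 3 and wild type 2 for 1. Wild type 3 was the lowest for 8 genes and knockout 2 for the other 2. For 8 of 10 genes the 3 highest libraries were knockout 3, wild type 1 and wild type 2. Over the 13722 genes with enough signal to be tested, this was so for 24.6%, and the reverse order, with these 3 libraries lowest, for 22.7%. Since the genes were proposed with their values in view, the 8 of 10 is a description and not evidence about ERK target genes in general. The median ratio of the highest to the lowest library was 3.00 for the 10 genes and 1.38 for the 13498 tested genes above 0 in all libraries. It was 1.28 for the 8681 tested genes with a mean of at least 10 TPM, a level that 7 of the 10 reached. The 3.00 also includes Phlda1, Dusp5 and Fosl1, which were below that level. Pearson r between pairs of the 10 genes over the 6 libraries ranged from 0.55 to 0.99 with a median of 0.93. All 45 pairs share the same 6 libraries, so these values describe this set only.

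The same division was visible in the rest of the transcriptome. A principal component computed over 13712 tested genes, leaving out the 10, held 44.2% of the variance. Its scores were -23.0, -17.3 and 31.7 in knockout 1, 2 and 3 and 19.6, 19.0 and -30.0 in wild type 1, 2 and 3. The mean of the 10 genes, each centred and divided by its SD, was -0.59, -0.87 and 1.04 in knockout and 0.91, 0.56 and -1.05 in wild type, with the same sign as the component score in all 6 libraries. The libraries fall into separate clusters on both measures, so no correlation was computed. Depth, in units of 1000000 reads, was 60.6, 52.4 and 77.3 in knockout 3, wild type 1 and wild type 2. It was 73.5, 67.9 and 70.4 in knockout 1, knockout 2 and wild type 3. Wild type 1 and knockout 3 thus had the lowest depth and wild type 2 the highest. What divides the libraries was not tested, and the labels name no batch.

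**Figure D2:**
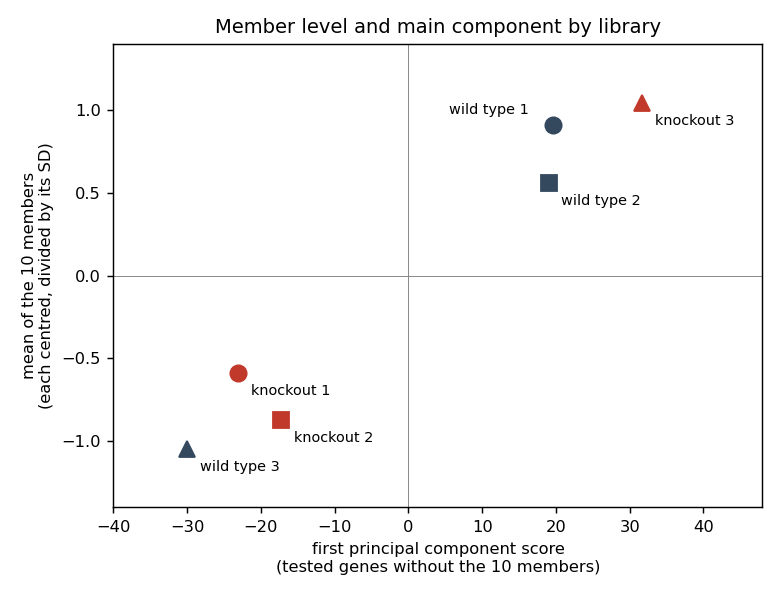
Mean standardised level of the 10 genes (vertical axis) against the first principal component score of all other tested genes (horizontal axis), with 1 point per library, red for knockout and dark blue for wild type. Knockout 3 (31.7 and 1.04) lies with wild type 1 and 2, and wild type 3 (-30.0 and -1.05) lies with knockout 1 and 2.

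The comparison of genotypes asks whether deleting PD-L1 in myeloid cells changed these genes. No change was detected, and the intervals were wide. Genotype was tested with limma on log2(TPM + 0.1) over all 13722 tested genes, all 10 included, with p-values adjusted over all of them and a threshold of 0.05. Of the 10 genes 0 were higher and 0 lower, against 0.0% of all tested genes in each direction, and no member reached an unadjusted p under 0.05, against 2.18% of all genes. The smallest unadjusted p among the 10 was 0.27, for Dusp5, and every adjusted p was 1.0. The groups overlapped for all 10 genes, whereas they did not overlap for 5.12% of tested genes, 2.84% being higher and 2.27% lower in knockout. In 8 of 10 the log2 difference, knockout minus wild type, was negative, as it was for 48.9% of tested genes. The median was -0.17 over the 10 and 0.0026 over all tested genes. By the adjusted p in the authors' deposited table, with the same threshold, none of the 10 is called, against 0.265% of its genes.

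The width of the intervals differed between the genes. Spred1 had a log2 difference of -0.10 ± 0.17 (SE) with a 95% interval of -0.50 to 0.29, and Dusp6 0.02 ± 0.21 with -0.47 to 0.51. For Ccnd1 it was -0.22 ± 0.71 with an interval of -1.93 to 1.49, and for Myc -0.30 ± 0.59 with -1.70 to 1.103. The Fosl1 interval ran from -2.42 to 1.95. Etv5 differed by -0.27 ± 0.40, Dusp5 by -0.35 ± 0.29, Spry2 by -0.12 ± 0.35, Dusp4 by -0.07 ± 0.51 and Phlda1 by 0.02 ± 0.63. Genotype accounted for between 0.018% (Phlda1) and 21.2% (Dusp5) of a gene's sum of squares over the libraries, with a median of 1.66%, against 6.26% for all tested genes.

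With the score of the first component of all tested genes as a covariate, an alternative chosen with earlier results known, the intervals narrowed for all 10 genes and none was called (limma, smallest adjusted p = 0.98). Ccnd1 then had a log2 difference of 0.00041 ± 0.10 with an interval of -0.24 to 0.24, and Dusp4 0.08 ± 0.07 with -0.09 to 0.25. Spry2 had -0.02 ± 0.08 with -0.21 to 0.17. Etv5 and Myc had -0.15 ± 0.13 and -0.12 ± 0.15. Dusp5 kept a wider interval of -0.84 to 0.25 and Phlda1 one of -0.81 to 1.15. The component was computed from the same libraries with the 10 genes included, and most of the 10 shared its division of the libraries. Narrower intervals could therefore be foreseen and are no separate support for an absence of change. These intervals hold only if the component does not itself carry an effect of genotype.

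**Figure D3:**
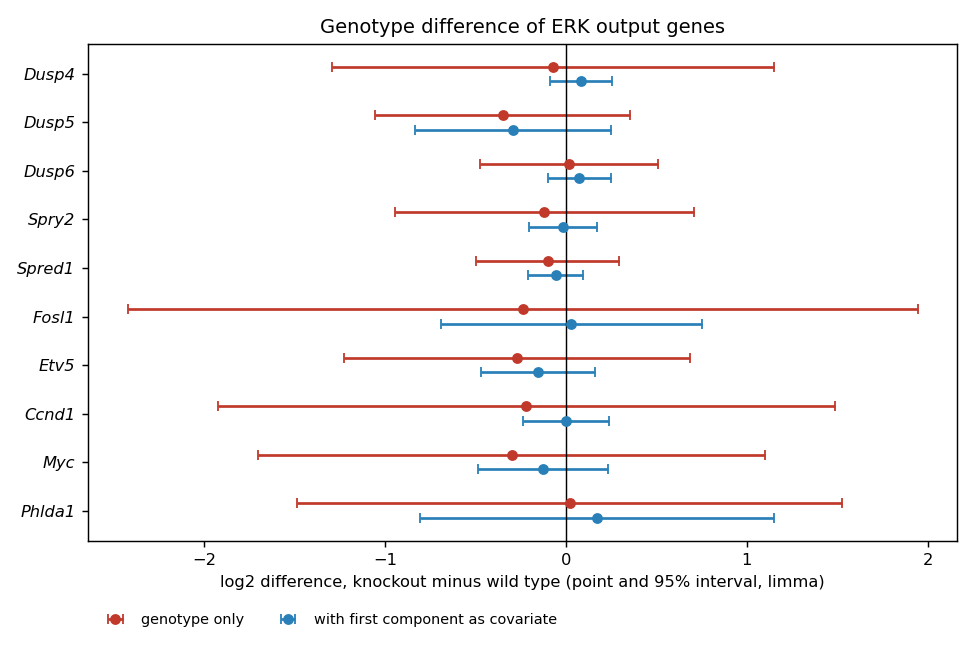
Log2 difference of each gene, knockout minus wild type, with its 95% interval from limma, for the comparison of genotypes alone (red, upper) and with the first component score as a covariate (blue, lower). All 20 intervals include 0, and the interval of Ccnd1 is -1.93 to 1.49 in the first and -0.24 to 0.24 in the second.

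Other genes of the pathway were taken from 14 lists, holding 137 tested genes in all. Of these 0 rose and 0 fell in knockout (limma), the log2 difference was above 0 for 56 and below 0 for 81, and the median was -0.02. Batf2, an interferon-induced AP-1 factor, was the only one at an unadjusted p under 0.05, with 10.4 ± 3.64 for knockout against 5.54 ± 1.22 TPM for wild type (mean ± SD, n = 3 per genotype), a log2 difference of 0.87 ± 0.27. Among the 137, 46 had knockout 3, wild type 1 and wild type 2 as their highest libraries and 36 had them as their lowest. Over all tested genes the shares were 24.6% and 22.7%, which stand beside each list count below. At the top of the pathway, the receptor gene Csf1r had 1448, 1355 and 815 TPM in the knockout libraries, against 1047, 1042 and 1525 TPM in the wild-type ones. It thus ran opposite to the output genes, with knockout 3, wild type 1 and wild type 2 lowest. Csf1, the gene of M-CSF itself, had 4.72, 4.94 and 17.9 TPM in the knockout libraries, against 6.12, 3.74 and 5.05 TPM in the wild-type ones. Knockout 3 stood alone in its level of Csf1. Il34, the other ligand of the receptor, was above 0 only in knockout 1, at 0.0182 TPM.

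Of the cascade itself, the kinase genes Braf and Mapk3 differed by no more than 1.30-fold between any libraries. The RAF gene Braf had 14.6 ± 0.074 TPM in knockout and 14.6 ± 0.49 TPM for the wild-type libraries (SD, n = 3 each). Mapk3, which encodes ERK1, had 228 ± 25.4 TPM in knockout and 239 ± 31.5 TPM for the wild-type libraries (SD, n = 3 each). Of the 17 RAS to ERK genes, 8 had knockout 3, wild type 1 and wild type 2 as their highest libraries and 5 had them as their lowest.

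Other members of the inhibitor families were also seen in this order. Spry4 had 0.132, 0.0556 and 0.673 TPM in the knockout libraries, against 0.432, 0.399 and 0.0609 TPM in the wild-type ones, and Spred2 had 19.6, 22.4 and 39.9 TPM in the knockout libraries, against 35.5, 37.6 and 18.1 TPM in the wild-type ones. Of the 4 tested Sprouty and Spred genes outside the 10, 3 had the shared order and Spred3 the reverse. Of the 10 other dual-specificity phosphatase genes 5 had it and 1 had the reverse. Dusp1, which acts mainly on p38 and JNK, was not among them, with 62.2, 22.7 and 48.6 TPM in the knockout libraries, against 55.4, 32.03 and 33.1 TPM in the wild-type ones.

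The immediate early genes are induced by ERK within minutes and without new protein synthesis. Of 16 tested, 2 had knockout 3, wild type 1 and wild type 2 as their highest libraries, and 4 had them as their lowest, beside 24.6% and 22.7% of all tested genes. Maff and Srf were the 2, and Egr1, Egr2, Egr3 and Mcl1 the 4. Atf3 and Klf6 were highest in knockout 3, at 252 and 312 TPM, though not in the full shared order. Fos had 243, 126 and 124 TPM in the knockout libraries, against 215, 148 and 155 TPM in the wild-type ones. Egr1 had 35.7, 24.4 and 6.49 TPM in the knockout libraries, against 17.6, 16.1 and 20.3 TPM in the wild-type ones, so that knockout 3, the highest library for 6 of the 10 output genes, was the lowest for Egr1, followed by wild type 2 and wild type 1. Egr2 had 8.85, 6.77 and 3.61 TPM in the knockout libraries, against 6.15, 3.89 and 7.46 TPM in the wild-type ones. Fosb was below 0.3 TPM in all libraries.

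Of 11 genes of the early cell cycle, 9 had knockout 3, wild type 1 and wild type 2 highest and 2 had them lowest. Over all tested genes the shares were 24.6% and 22.7%. Ccnd2 had 4.23, 5.14 and 15.9 TPM in the knockout libraries, against 12.04, 8.62 and 3.94 TPM in the wild-type ones. Cdk6 had 24.0, 20.5 and 38.9 TPM in the knockout libraries, against 35.0, 35.8 and 21.0 TPM in the wild-type ones. The inhibitor genes differed from each other. Cdkn1b ran the other way, with 62.1, 55.9 and 38.5 TPM in the knockout libraries, against 42.0, 37.9 and 59.8 TPM in the wild-type ones. Cdkn1a was in the shared order, with 173, 165 and 233 TPM in the knockout libraries, against 214, 229 and 144 TPM in the wild-type ones. Of 12 ETS factor genes 5 shared the order and 1 had the reverse. Ets2 was in the shared order, with 41.5, 44.8 and 127 TPM in the knockout libraries, against 93.5, 87.9 and 32.9 TPM in the wild-type ones. Of 9 partners and relatives of MYC, 1 shared it and 4 had the reverse. Braf, Il34, Dusp1, Fos, Egr1, Egr2, Fosb, Ccnd2, Cdk6, Ets2 and the macrophage marker Cd68 were named after their values had been seen. So were Maff, Srf, Egr3, Mcl1, Atf3, Klf6, the macrophage marker Mertk and the neutrophil markers Elane and Mpo.

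Genes outside the list with the most similar pattern were ranked by Pearson r with the mean of the 10 over the 6 libraries, among 8674 genes with a mean of at least 10 TPM. The highest was Ptpn7, which encodes a tyrosine phosphatase of blood cells that binds and dephosphorylates ERK, with r of 0.998. It had 74.8, 71.9 and 102 TPM in the knockout libraries, against 100, 94.7 and 67.4 TPM in the wild-type ones. Plaur, the urokinase receptor gene, and Hmga2, a chromatin architecture gene, followed, each with r of 0.996. Both are also in the list of other ERK output genes, among the 14 pathway lists. Among its 12 tested genes, 7 had knockout 3, wild type 1 and wild type 2 highest and 2 had them lowest. The shares over all tested genes were 24.6% and 22.7%. Spry4 and Etv4, in the shared order, Egr1, in the reverse, and Ier3, in neither, were already counted in the lists above. Hmga2 had 11.2, 9.70 and 36.8 TPM in the knockout libraries, against 37.8, 26.0 and 7.27 TPM in the wild-type ones. The others were Slc12a4, 1700017B05Rik, Dot1l, Tcof1 and Ampd2, with r of 0.995 to 0.996. Over 6 libraries a high r is not rare: 5.29% of the ranked genes had r above 0.95, a lower cut than the values named here. The ranking describes likeness and says nothing of shared control.

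**Figure D4:**
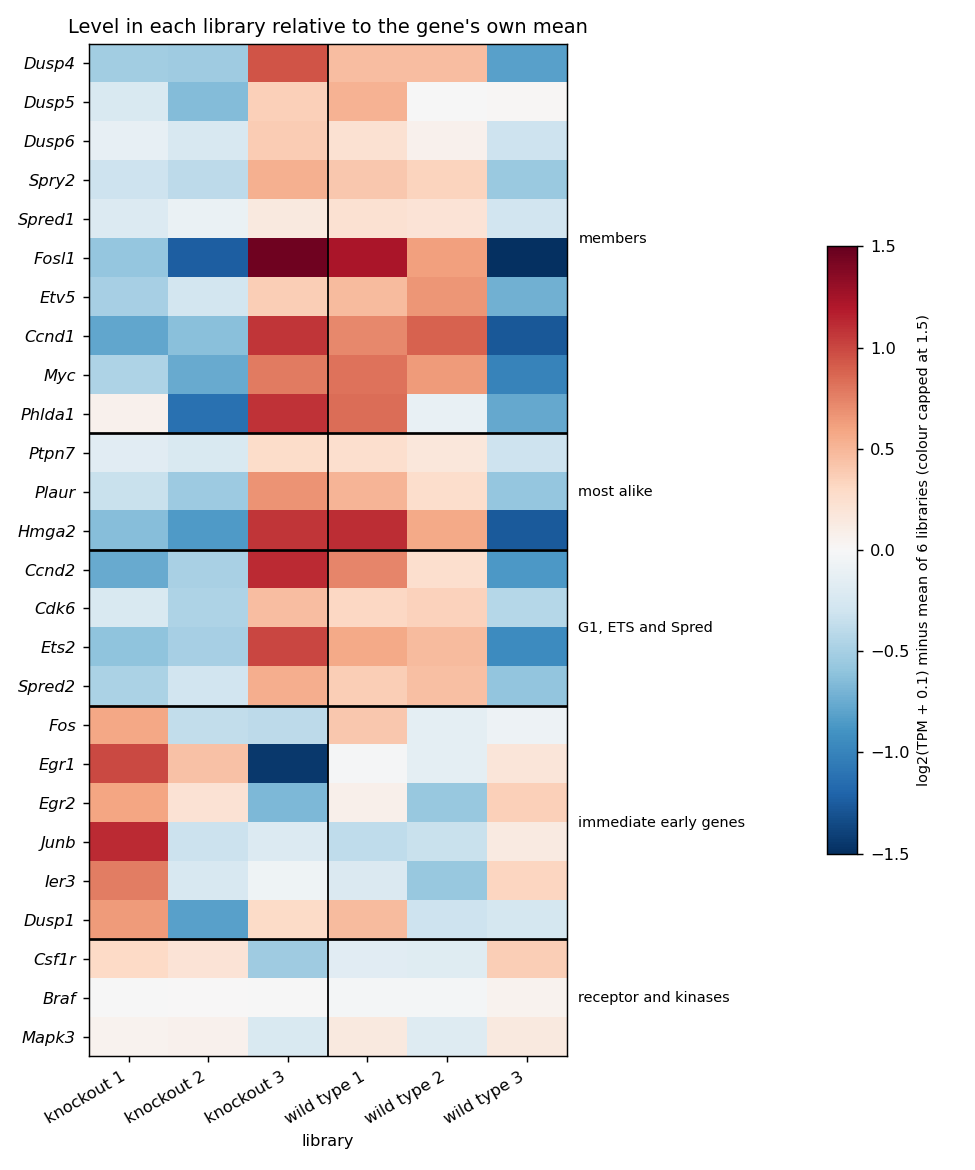
Level of the 10 genes and of chosen other pathway genes in each library, as log2(TPM + 0.1) minus the gene's mean over the 6 libraries, with red above and blue below the mean. The columns of knockout 3, wild type 1 and wild type 2 are red for most output genes, while Csf1r, Egr1 and Egr2 are lowest in these 3 columns. The genes that are not members were chosen for display after their values had been seen.

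The labels and the cell type were checked as far as the table allows. Cd274, which encodes PD-L1, was at 19.3, 19.2 and 29.2 TPM where the label says knockout, against 17.9, 15.5 and 23.7 TPM where it says wild type. The whole-gene value was therefore not lower in knockout, and whether the floxed part was lost cannot be read from it. Lyz2, the gene at the locus that carries the Cre, had 19101, 19354 and 13232 TPM where the label says knockout, against 26707, 27493 and 40358 TPM where it says wild type. All 3 knockout libraries were thus below all 3 wild-type ones, with knockout 3 lowest and wild type 3 highest, although Lyz2 did not pass the threshold (limma log2 difference of -0.87 ± 0.27, adjusted p = 1.0). Every statement on genotype above is by label. An exchange of labels between libraries such as knockout 3 and wild type 3 was not tested otherwise, and it would alter every genotype difference given. Of 8 macrophage markers 7 were in the table (Adgre1 was not analysed here). They were present in all libraries, with 1900 to 2500 TPM of Cd68 and 52.6 to 107 TPM of Mertk. Neutrophil genes were also present, with 1727 to 2546 TPM of S100a8. Summed macrophage markers were 16796 to 23827 TPM in knockout and 31057 to 44991 TPM in wild type, most of it Lyz2. In bulk RNA, fewer cells of a type and less RNA per cell cannot be told apart. The summed level of the 10 stromal and endothelial markers was 8.66 to 11.96 TPM in knockout and 9.93 to 10.3 TPM in wild type, and none of the 10 was at 0 in all libraries. That of the 8 T and NK cell markers was 2.29 to 4.29 TPM in knockout and 0.343 to 0.695 TPM in wild type, with 6 of 6 tested markers above 0 in log2 difference, and that of the 7 B cell markers 57.4 to 97.9 TPM in knockout and 91.8 to 118 TPM in wild type. Summed neutrophil markers were 7171, 6890 and 6212 TPM in the knockout libraries, against 6199, 5145 and 7483 TPM in the wild-type ones. The sum was lowest in the 3 libraries with high output genes, but most of it was S100a8 and S100a9. These libraries were lowest for 3 of 7 tested neutrophil markers and highest for 0. They were lowest for 2 of 7 tested macrophage markers, Csf1r and Mertk, and highest for 0. For the 6 monocyte markers the counts were also 2 and 0. Over all tested genes the shares were 22.7% lowest and 24.6% highest. Elane and Mpo were highest in wild type 1, followed by knockout 3. The part of other cell types in the levels of the 10 genes was not tested.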

How the data were processed

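Per the labels' protocols, total RNA of each culture was made into stranded total RNA libraries. The submitters' processing notes list edgeR, featureCounts, Subread, Picard 1.127, TopHat2 2.0.12 and FastQC 0.11.2, with mm10 as build. Their roles, options and annotation are not stated. The authors deposited TPM per gene and library (read from the values, which sum to 1000000 per library). Per the file headers the table also holds the authors' log2 fold change, mean log2 CPM, a likelihood ratio score and a p-value with its adjusted value.

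Whole reads were recovered from ratios of a gene's TPM values between libraries, and 100% of 94034 values above 0 lay within 0.01 of a read. A count model was not used as the main test because the deposited unit is TPM. limma 3.58.1 (R 4.3.3, mean-variance trend, two-sided, Benjamini-Hochberg) was run on log2(TPM + 0.1) after dropping genes that had under 0.1 TPM in more than 3 libraries. This scale understates changes of low genes. The labels do not say whether each culture came from its own mouse, so p-values reflect only how far these samples scatter. The fit and the recovery were tested on simulated data. The reads simulated for the fit carried no division of the libraries like the one seen here. They therefore do not show how large a change could be detected in these libraries. The members, lists and alternatives were chosen with earlier results of these data known. Named genes are the 10, the label check, in each pathway list up to 4 genes of smallest p and 2 of highest mean TPM, the 2 most abundant markers of other cell types, and the 8 most alike. Genes named for overlap with a member, or after their values were seen, stand outside this rule. Some genes of the pathway lists are not reported here by name.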

Additional observations from a re-analysis of the deposited data

How the results depend on the processing

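No gene, among the 10 or over the whole table, was past the threshold under any of the 15 alternatives, which are 9 that keep all libraries and 6 that leave out 1. With all libraries kept, the number of genes at an unadjusted p under 0.05 (limma) was 168 to 639, and without wild type 3 it was 1012. Of 90 values of the 10 genes under the 9 alternatives with all libraries, 87 kept their direction. The other 3 changed sign with the first component as covariate: Dusp4 at 0.083, Fosl1 at 0.030 and Ccnd1 at 0.00041. Leaving out 1 library in turn gave ranges of log2 differences of -0.57 to 0.17 for Dusp4, -0.61 to -0.12 for Dusp5, -0.17 to 0.14 for Dusp6, -0.43 to 0.054 for Spry2, -0.27 to -0.01 for Spred1, -1.04 to 0.32 for Fosl1, -0.70 to -0.01 for Etv5, -0.91 to 0.17 for Ccnd1, -0.88 to 0.034 for Myc and -0.52 to 0.58 for Phlda1. The mean log2 value of the 10 genes differed by -0.16 between genotypes and by -0.56 to 0.092 with single libraries left out. It was -0.56 without knockout 3 and -0.56 without wild type 3. With the replicate block, same-numbered libraries being compared, 0 genes were called, 232 had an unadjusted p under 0.05 and Ccnd1 differed by -0.22 ± 0.87. Deviations from the group means correlated at -0.24, -0.15 and -0.53 across genes for numbers 1, 2 and 3. These values also carry the division of the libraries across the labels. Whether same-numbered libraries share a litter or day therefore cannot be told from them. Depth limits Fosl1, Dusp5 and Phlda1, with at most 172 reads per library.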
